A study of Mus musculus with 2 samples.

Results

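Eif1a, which encodes the translation initiation factor eIF1A, was followed together with 6 copies similar to it in coding sequence, BB287469, Gm2016, Gm2022, Gm4027, Gm5662 and Gm8300. These 7 genes were found by name among the 22421 genes of the deposited tables, and each was listed by 1 transcript. RNA came from mouse CGR8 embryonic stem cells, an established line grown without feeder cells in serum and leukaemia inhibitory factor. Cells were transfected 2 times within 72 hours with a negative control siRNA (1 library) or with an siRNA against Set1a (1 library). The labels name no other difference between the groups, and nothing says how many cultures each library came from. Set1a is listed under the symbol Setd1a and methylates histone H3 at lysine 4, and the comparison asks how lowering it affects expression. The 6 copies were chosen by their levels in these same libraries, so their ratios are a description without a test. Eif1a lies on chromosome 18 and the copies on another chromosome.

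The factor eIF1A binds the small ribosomal subunit, helps it scan a messenger RNA for the start codon and acts beside eIF1, eIF2 and eIF5. Transcripts of the Eif1a-like copies are known from the early mouse embryo and from 2-cell-like cells, rare cells of a stem cell culture that express genes of that stage. The series holds no embryo sample, so the stage itself could not be checked here.

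The label of retrocopies, gene copies made from a spliced messenger RNA, was set against the GENCODE M21 annotation (GRCm38). In each copy the coding sequence of 432 bases, 144 codons without the stop, lies in 1 exon. Gm2022 is annotated over 435 bases only, and each of the other copies has 2 exons, 1 of them without coding sequence. Eif1a itself also carries its 432 coding bases in 1 of 3 exons. Its X-linked paralog Eif1ax, which encodes the same factor, spreads them over 7 exons. The 6 copies lie on chromosome 12, in the order Gm8300, Gm4027, BB287469, Gm2016, Gm2022 and Gm5662. They stand in a block of 55 annotated genes and pseudogenes, 38 of them pseudogenes. As these annotations are of another build than the mm9 files, only gene order and sequence were taken from them.

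The copies were closer to Eif1a than to Eif1ax in coding sequence. They were 93.75% to 95.1% identical to Eif1a, 83.6% to 84.95% identical to Eif1ax, and 97.2% to 100% identical to each other over 15 pairs. Each copy differed from Eif1a by 7 to 12 codons that change the residue and 10 to 13 that do not. Eif1a and Eif1ax differed by 2 codons that change the residue and 58 that do not. At 18 of the 432 positions all 6 copies shared a base that Eif1a lacks, and at 9 of these Eif1ax lacked it too. These 9 positions fell in 7 codons, 6 of which encode another residue than both Eif1a and Eif1ax in all 6 copies. The stretch richest in such positions, coding bases 73 to 132, is shown because it tells the copies from Eif1a and Eif1ax alike, with the shared positions in capitals. Gm5662, BB287469, Gm2016, Gm2022 and Gm4027 have the same bases there.
Gm5662: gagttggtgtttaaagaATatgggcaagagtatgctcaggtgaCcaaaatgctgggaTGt
Gm8300: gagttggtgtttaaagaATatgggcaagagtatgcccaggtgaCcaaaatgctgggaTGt
Eif1ax: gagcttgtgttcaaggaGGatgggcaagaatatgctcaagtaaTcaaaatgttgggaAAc

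Among themselves the copies varied at 16 of the 432 coding positions. The stretch with the most of these, coding bases 232 to 291, is given with its 6 varying positions in capitals, as it shows which copies a read could tell apart. BB287469 and Gm4027 had identical coding sequences.
BB287469: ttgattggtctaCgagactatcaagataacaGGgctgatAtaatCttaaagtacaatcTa
Gm2016: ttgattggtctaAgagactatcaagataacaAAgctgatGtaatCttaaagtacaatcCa
Gm2022: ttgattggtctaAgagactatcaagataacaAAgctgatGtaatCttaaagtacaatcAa
Gm5662: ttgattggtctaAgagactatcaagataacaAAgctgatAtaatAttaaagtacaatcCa
Gm8300: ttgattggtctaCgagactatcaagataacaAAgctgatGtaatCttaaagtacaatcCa

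Sharing between whole transcripts was counted in words of 50 bases on either strand. As 1 differing base can remove up to 50 words, these shares cannot be set beside the identities of the coding sequences. Eif1a had 96.7% of its words in no other listed gene, and it shared 35 to 62 words with each copy. Eif1ax shared 0 words with any of the 7 genes. BB287469 and Gm4027 shared 1700 words, 94.3% and 94.4% of each. Gm2016 and Gm5662 shared 1291 words, 75.2% and 72.1% of each. Gm8300 stood farthest from the rest, with 75.9% of its words in no other listed gene, against 3.39% for BB287469, 5.61% for Gm4027, 18.9% for Gm2016 and 23.7% for Gm5662. For Gm2022 the value was 15.8%, over the annotated coding sequence alone, which is shorter than the transcript the authors counted. Set against all other GENCODE genes, listed or not, the share was only 2.85% for Gm2022. It was 18.7% for Gm2016, 22.1% for Gm5662 and 73.4% for Gm8300, and unchanged for BB287469 and Gm4027. The read length, and how a read matching more than 1 copy was counted, was not given in the sources used here. Values of single copies, in particular of the 2 pairs, are therefore uncertain.

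**Figure D1:**
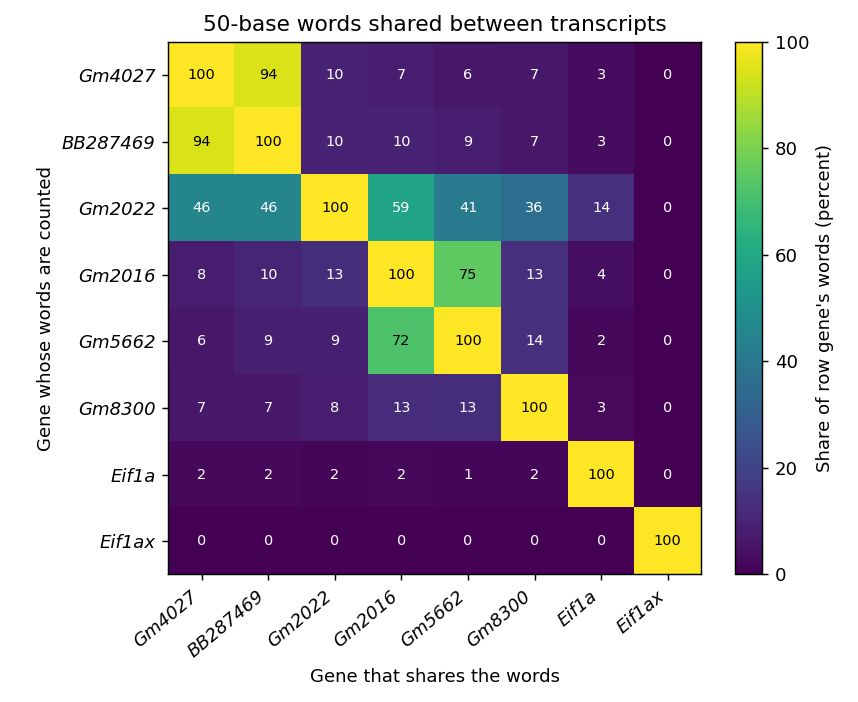
Share of each row gene's 50-base words (percent, colour and number) that also occur in the column gene, for the 6 copies, Eif1a and Eif1ax, from GENCODE M21 transcripts. Gm4027 and BB287469 form a pair with 94% shared, Gm2016 and Gm5662 a pair with 75% and 72%, and Eif1ax shares 0% with every other gene.

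The values are RPKM, read counts scaled by transcript length and by the reads of the library. Depth was 6655821 reads with control siRNA and 6421185 with Set1a siRNA. Setd1a was at 14.2 RPKM with control siRNA and 11.97 RPKM with Set1a siRNA, a small difference in the direction of the labels (ratio 0.846, 0.746 to 0.959). Among the 11786 genes whose 2 values averaged 1 RPKM or more, 15.0% had a lower log2 fold than Setd1a. Whether the siRNA lowered its target was not tested. All 8 stem cell markers lay between 79.5 and 2004 RPKM, with a median log2 fold of 0.0023. Of these, 4 were higher and 4 lower with Set1a siRNA. Their ratios ran from 0.844 for Dppa5a (0.818 to 0.871) to 1.09 for Tdgf1 (1.06 to 1.13). Of the 22 markers of fibroblasts, primitive endoderm, mesoderm, neural cells and trophectoderm, the highest were at 11.9 and 9.72 RPKM, and their 5 lists summed to between 2.08 and 11.995 RPKM per library. Of these markers, 4 were at 0 in both libraries. The part of other cell types in the results was not tested. In bulk RNA, more cells that express a gene and more RNA per cell cannot be told apart.

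Eif1a was at 74.6 RPKM with control siRNA, from 1430 reads, and at 69.1 RPKM with Set1a siRNA, from 1277 reads. The ratio was 0.926, and its exact Clopper-Pearson 95% interval from the reads ran from 0.858 to 0.999. Such an interval covers counting error only, and no replicate shows how far 2 cultures of 1 kind differ. Eif1ax was lower by a little more, at 68.1 and 57.5 RPKM (ratio 0.844, interval 0.794 to 0.897). Both genes of the factor were thus slightly lower with Set1a siRNA. Among the 11786 genes whose 2 values averaged 1 RPKM or more, 48.8% had a log2 fold below 0, and 29.4% lay lower than Eif1a.

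Every copy was higher in the Set1a siRNA library. Gm5662 was at 4.33 RPKM with control siRNA, from 53 reads, and at 25.5 RPKM with Set1a siRNA, from 301 reads. Its ratio of 5.89 (4.38 to 8.04) was the highest of the 6. Gm8300, the copy with the most sequence of its own, was at 3.85 RPKM from 48 reads and at 18.6 RPKM from 223 reads. Its ratio was 4.82 (3.51 to 6.72). Where in the transcript its reads fell was not looked at, so the part of shared words in this ratio was not tested. Gm2022 was at 4.70 RPKM from 57 reads and at 21.9 RPKM from 256 reads, a ratio of 4.66 (3.48 to 6.32).

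Gm2016, the partner of Gm5662 in sequence, was at 6.38 RPKM from 75 reads and at 26.8 RPKM from 304 reads, a ratio of 4.20 (3.25 to 5.48). The other pair had the lowest ratios. BB287469 had 4.83 and 18.1 RPKM and a ratio of 3.75 (3.05 to 4.63). Gm4027 had 8.43 and 27.2 RPKM, and its ratio was 3.22 (2.60 to 4.02). At the transcript lengths used, its interval did not overlap that of Gm5662, and all other pairs of copies had overlapping intervals. At these lengths the lowest limit of any copy was 2.60, and the intervals of Eif1a and Eif1ax ended below 1. The lengths were not settled, as given below.

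**Figure D2:**
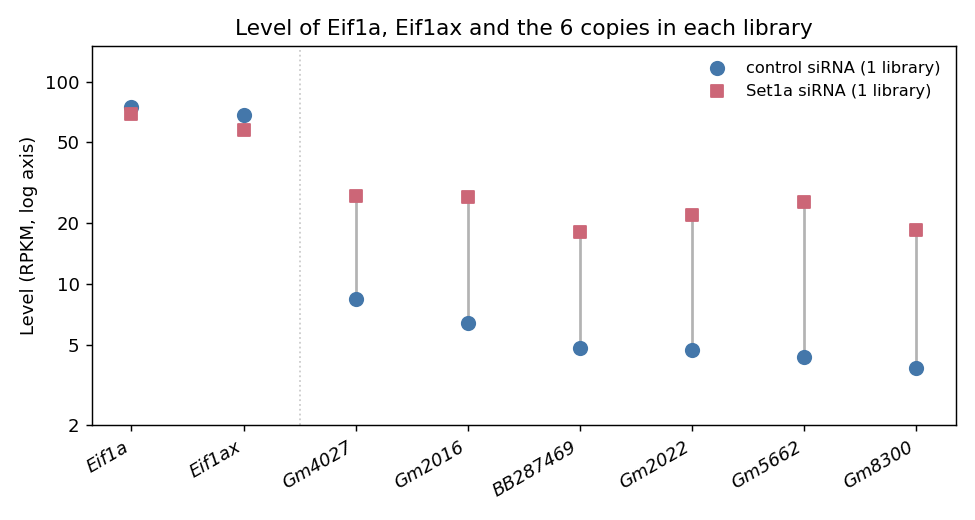
Level of each gene (RPKM, log axis) in the control siRNA library (circles) and the Set1a siRNA library (squares), 1 library each, so no error is drawn. Eif1a and Eif1ax sit between 57.5 and 74.6 RPKM in both, while the copies move from between 3.85 and 8.43 RPKM to between 18.1 and 27.2 RPKM.

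**Figure D3:**
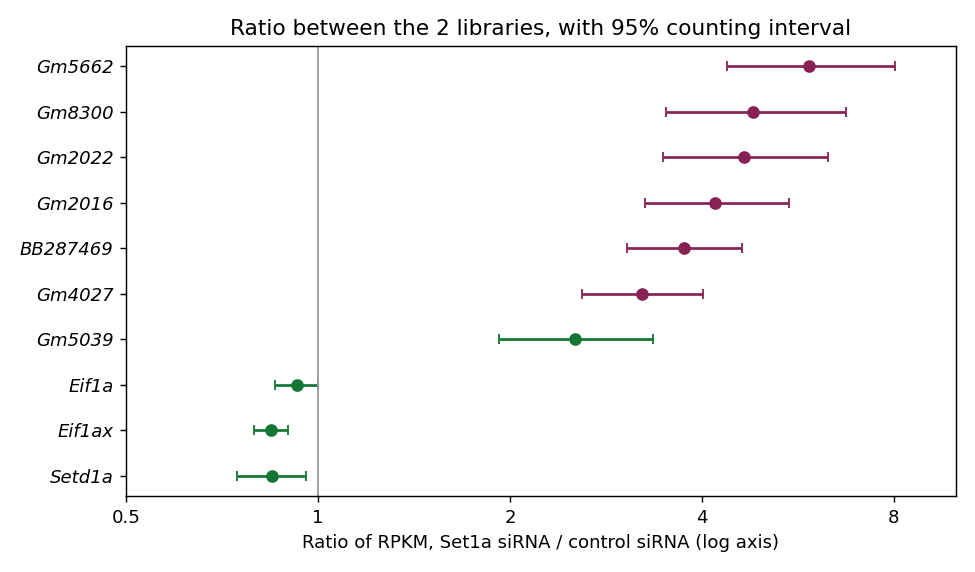
Ratio of RPKM between the Set1a siRNA and control siRNA libraries (log axis) with 95% counting intervals, for the 6 copies (purple) and for Gm5039, Eif1a, Eif1ax and Setd1a (green). The copies lie between 3.22 and 5.89 and the other 3 named genes between 0.844 and 0.926, with Gm5039, a further copy, at 2.53.

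The reads given for each gene depend on the transcript length that the authors used, which whole reads alone did not settle. Most genes gave whole reads at a length and its multiples, and the one nearest the annotation was taken. This was 1766 bases for Gm2016, as annotated, 1841 against 1840 for Gm5662, 1872 against 1873 for Gm8300 and 2879 against 2865 for Eif1a. Gm2022 gave whole reads at 1822 bases and multiples of it, against an annotated 435 bases, so its 57 and 256 reads belong to a longer transcript than the one whose words were counted. The ratio of RPKM is the same at any length, but its interval narrows with the reads. BB287469 gave whole reads, among the lengths tried, only at 3702 bases, which is 2 times its annotated 1851 bases, with 119 and 430 reads. Why its length came out so was not tested. Gm4027 gave whole reads at every multiple of 499 bases. The multiple nearest its annotated 1850 bases is 1996, with 112 and 348 reads, used above. At 4491 bases, within 1 base of its gene span of 4492 in GRCm38.p6, the reads are 252 and 783, and the interval 2.79 to 3.73. At 998 bases the reads are 56 and 174, and the interval of 2.37 to 4.43 overlaps that of Gm5662. At 499 bases the reads are 28 and 87, and the interval of 2.08 to 5.12 overlaps it too. Eif1ax was ambiguous in the same way, at multiples of 463 bases. At 463 bases its reads are 210 and 171, and the interval of 0.686 to 1.04 holds 1. At the longer multiples tried, which include the 5093 bases used above, the interval ends below 1.

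In the control siRNA library the copies ranked Gm4027, Gm2016, BB287469, Gm2022, Gm5662 and Gm8300 from high to low. With exact Poisson 95% intervals of the reads at the lengths used, each neighbour in this order overlapped the next. The interval of Gm4027, at 6.94 to 10.1 RPKM, overlapped that of Gm2016 and lay above those of the other 4 copies, BB287469 (4.0009 to 5.78 RPKM), Gm2022 (3.56 to 6.09 RPKM), Gm5662 (3.24 to 5.66 RPKM) and Gm8300 (2.84 to 5.11 RPKM). With Set1a siRNA the order was Gm4027, Gm2016, Gm5662, Gm2022, Gm8300 and BB287469, and neighbours again overlapped. The spread of levels was narrower there, 1.501-fold from the lowest to the highest copy against 2.19-fold with control siRNA. Gm5662 made 13.3% of the summed level of the copies with control siRNA and 18.5% with Set1a siRNA. Gm4027 made 25.9% and 19.7%.

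Summed over the 6 copies, the level was 32.5 RPKM with control siRNA and 138 RPKM with Set1a siRNA, a ratio of 4.24. The 464 and 1862 reads beneath gave a ratio of 4.16 (3.76 to 4.61) per read of depth. These reads, their ratio and its interval depend on the transcript lengths used, which were not settled, in particular for BB287469 and Gm4027. The ratio of 4.24 between the summed levels does not depend on them. The sum was 43.6% of the level of Eif1a with control siRNA and 1.997 times that level with Set1a siRNA. On the log2 scale the ratio of the sum exceeded that of Eif1a by 2.196, and that of Eif1ax by 2.33. Set beside Eif1a and Eif1ax together, the copies stood at 22.8% and 109%. If a read that matches several copies was counted at each of them, these sums are too high and the interval is too narrow.

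**Figure D4:**
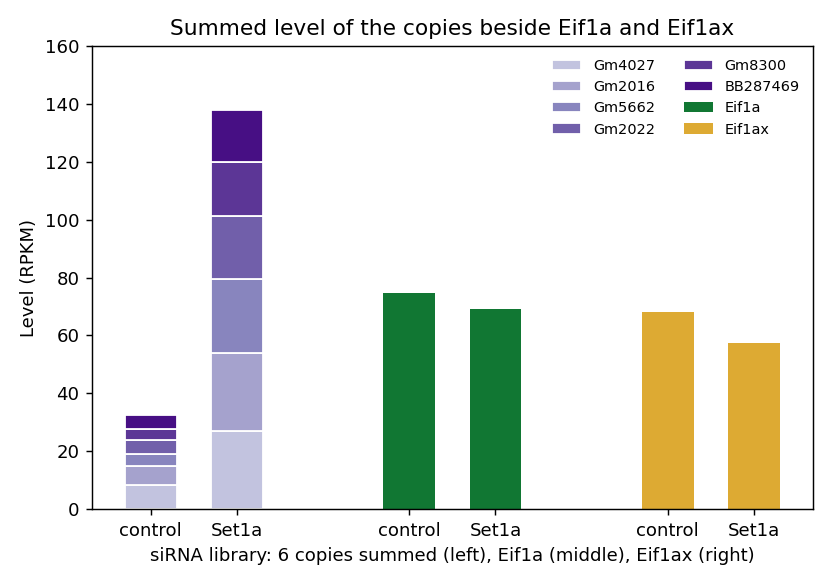
Level (RPKM, bars from 0) of the 6 copies stacked, of Eif1a and of Eif1ax, in the control siRNA and Set1a siRNA libraries, 1 library each. The stack stands at 32.5 and 138 RPKM and in the Set1a siRNA library passes the bar of Eif1a, which stands at 74.6 and 69.1 RPKM.

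Genes were counted on the log2(RPKM + 1) scale, which understates changes of low genes, at a rule of 2-fold and a floor of 1 RPKM on the mean. All 6 copies passed this floor and were at least 2-fold higher. Of all 11786 genes, 0.764% were (90 genes), and 1.17% were past 2-fold either way. As the copies were picked with this contrast known, nothing is read from that count. Their log2 folds were 2.31 for Gm5662, 2.01 for Gm8300, 2.01 for Gm2022, 1.91 for Gm2016, 1.71 for BB287469 and 1.58 for Gm4027. Eif1a was at -0.11. The median was 1.96 over the copies and 0.0066 over all genes, whose quartiles were -0.14 and 0.15. Among the 11786 genes, the copies took places between 22 and 54 from the top.

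**Figure D5:**
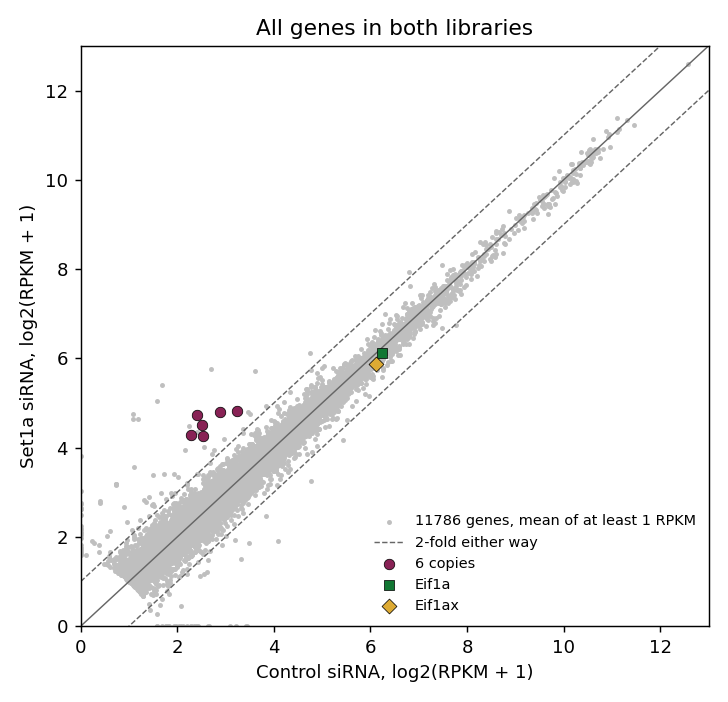
Level in the Set1a siRNA library against the control siRNA library, both as log2(RPKM + 1), for the 11786 genes averaging 1 RPKM or more (grey), with equality (solid line) and 2-fold either way (dashed lines). The 6 copies lie above the upper dashed line, and Eif1a and Eif1ax lie inside both.

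The partners of eIF1A were then read from a list. Of 53 listed translation initiation factor genes other than Eif1a, 52 passed the filter, and 0 were at least 2-fold higher or lower. Of all genes, 0.764% were higher, 0.407% lower and 1.17% either way, so in a list of this size a count of 0 is near the background share. Their median log2 fold was 0.04, with 32 above 0 and 20 below. Eif1, for the factor that shares start codon selection with eIF1A, was at 218 and 206 RPKM (ratio 0.947, 0.885 to 1.01). Eif5b, whose product binds eIF1A when the subunits join, was at 20.9 and 22.6 RPKM (1.08, 0.996 to 1.18). The lowest ratio among factors averaging 5 RPKM or more was that of Eif1ax itself. Next came Mcts1 at 0.872 (0.631 to 1.20), Eif3e, an eIF3 subunit, at 0.883 (0.816 to 0.956), and Eif3j1, of the same complex, at 0.890 (0.822 to 0.964). The highest were Eif4g3, a cap-binding scaffold, at 1.40 (1.14 to 1.72), Eif5, the activator of the eIF2 GTPase, at 1.35 (1.24 to 1.45), Eif2ak1, an eIF2 kinase, at 1.30 (1.13 to 1.504), and Eif1b, a paralog of Eif1, at 1.20 (0.860 to 1.69).

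Of 20 other listed genes of the 2-cell-like state, 11 passed the floor and 9 were under it. All 11 were higher with Set1a siRNA, and 9 of them were at least 2-fold higher, against 0.764% of all genes. As the list was chosen with earlier results of these data known, nothing is read from that count. Zscan4f was at 2.22 and 41.2 RPKM and Gm4340 at 5.52 and 53.0 RPKM, while Sp110 was at 3.56 and 3.77 RPKM. Tcstv1 and Tcstv3 were at 0 in both libraries. The genes nearest to the summed copies in log2 fold over the 2 libraries were sought among 7778 genes of at least 200 bases that averaged 5 RPKM or more. The 6 nearest were 1700030L20Rik, Pramel17, AA792892, Rpph1, Mest and Gm7102, at 0.07, 0.10, 0.12, 0.38, 0.57 and 0.68 from it. 1700030L20Rik was at 11.1 and 51.9 RPKM, and Pramel17, of the PRAME-like family, at 4.11 and 18.8 RPKM. Rpph1, the RNA of ribonuclease P, rested on 5 and 20 reads. With 2 libraries, likeness is only a like ratio.

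The nearest protein-coding genes outside the block on chromosome 12 had ratios between 0.673 and 1.05. Among the 5 before it, the ratio was 0.946 (0.836 to 1.07) for Snw1, a splicing factor gene, 0.828 (0.754 to 0.909) for Slirp, 0.765 for Nrp, 1.05 for Alkbh1 and 0.984 for Sptlc2. Of the 5 after it, Adck1 had a ratio of 0.673 (0.479 to 0.938) and Cep128 of 0.934 (0.723 to 1.21), and Nrxn3, Dio2 and Tshr had at most 1 read in each library. Inside the block 4 other genes were listed. Oog1 and Pramel51 had 1 read with control siRNA and 0 with Set1a siRNA, Gm16381 had 0 and 1, and Gm1995 had 8 and 23. These neighbours were looked up after the values were seen.

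Upstream sequence was given for 2 of the copies, BB287469 and Gm4027, and for Eif1ax in a RefSeq table (GRCm38.p6) of 250 bases before to 50 after each gene start. The windows of the 2 copies, offset by 41 bases, overlapped by 259 bases and differed at 1 of them. They held 4 and 6 CG dinucleotides, against 31 in Eif1ax and a median of 7 over 32851 windows. CG dinucleotides are shown in capitals because SET1 complexes are known to be directed to unmethylated CG-rich promoters. Of all windows, 38.0% held as few as BB287469 or fewer, 47.9% as few as Gm4027 or fewer, and 10.6% as many as Eif1ax or more. No window was given for Eif1a. TATAAA was found on neither strand of the 3 windows, and in 13.6% of all windows. TATATA, searched on both strands after the sequence was seen, was found in both copies, in 5.67% of all windows and not in Eif1ax. The 250 bases before the start are chr12:87816327-87816576 for BB287469 and chrX:159371928-159372177 for Eif1ax, both on the plus strand of GRCm38.p6.
BB287469: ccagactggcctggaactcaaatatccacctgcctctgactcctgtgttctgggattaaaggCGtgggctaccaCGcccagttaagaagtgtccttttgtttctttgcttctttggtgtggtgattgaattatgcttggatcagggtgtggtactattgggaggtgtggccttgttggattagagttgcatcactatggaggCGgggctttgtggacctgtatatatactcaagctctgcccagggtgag
Eif1ax: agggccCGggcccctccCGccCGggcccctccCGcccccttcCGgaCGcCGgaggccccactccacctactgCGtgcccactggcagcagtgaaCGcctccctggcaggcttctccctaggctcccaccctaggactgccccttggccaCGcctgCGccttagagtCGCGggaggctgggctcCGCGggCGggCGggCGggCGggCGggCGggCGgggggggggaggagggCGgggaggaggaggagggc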

How the data were processed

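RNA-seq values of 2 libraries were used, 1 per siRNA group, grouped by the transfection label. The authors deposited 1 value for each of 28430 RefSeq transcripts. No header names the unit; RPKM was inferred from the deposited values. CASAVA, TopHat, TopHat2 2.0.12, SAMtools 0.1.16 and build mm9 are named per the submitters' processing notes, without their roles; which counter, strand setting and rule for multiple matches was used was not given in the sources used here.

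From the files, depth was taken where the length-scaled values of transcripts at 1 read piled up (357 and 397 transcripts), with GENCODE M21 lengths. Of transcripts with 1 to 10 reads, 44.3% and 43.5% lay within 0.01 of a whole read, against 2% at random; why the others did not was not tested. For a named gene, the length nearest its annotation at which both libraries gave whole reads was used. For Gm2022, and for Gm5039 and Gm1995, which had no GENCODE length, the search started from the median annotated length of the other copies. In data simulated for this comparison (27552 transcripts), every count was whole and the length searched from lay close to the true one. There, 96% of 200 transcripts got their exact reads back. Of 200 intervals, 95.5% held the true ratio, but they were computed from the simulated reads themselves, not from recovered reads. Genes whose length came out far from the annotation, as Gm2022, Gm4027 and BB287469, were not covered by the simulation.

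Symbols came from RefSeq (GRCm38.p6) and GENCODE for 98.3% of transcripts. Where a gene had several transcripts, the one with the most reads stood for it. Folds were log2((Set1a siRNA RPKM + 1)/(control siRNA RPKM + 1)). The members and lists were chosen with earlier results of these data known. Genes outside the members were named by rule: the 4 highest and 4 lowest initiation factors averaging 5 RPKM or more, the 6 genes most like the summed copies, Eif1ax and Setd1a; Eif1, Eif5b, Zscan4f, Gm4340, Sp110, Tcstv1, Tcstv3, Gm5039 and the neighbours were chosen after their values were seen. With 1 library per group there was no test. Alternatives were pseudocount, floor, fold rule, scaling, transcript choice, length and which copies enter. Python 3.11.15, numpy 2.4.6, pandas 2.3.3, scipy 1.17.1, matplotlib 3.10.9 and Biopython 1.88 were used.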

Additional observations from a re-analysis of the deposited data

Results flagged for a closer look

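Gm5039, a further Eif1a-like copy on chromosome 12 that is outside the 7 genes, drew attention as a signal in data that no comparison used, above its level in the control. Its level was 6.87 RPKM with control siRNA, from 75 reads, and 17.4 RPKM with Set1a siRNA, from 183 reads, a ratio of 2.53 (1.92 to 3.35). RefSeq lists it as a transcribed pseudogene spanning 1641 bases. It shared 52 to 167 words of 50 bases with each of the 6 copies and was the only listed gene among 14 other GENCODE genes that shared such words with them; the other 13 were not analysed here.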

How the results depend on the processing

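No paired analysis was possible because there was 1 library per siRNA, and no library could be left out. Of 81 values under other settings, 58 stayed within their interval or within 1.5 times their count, and 23 did not. Of the ratios and folds, 0 changed direction, and direction was not scored for counts. Some values could not move: the mean over copies gives the same ratio as the sum, and both scalings cancel in the difference from Eif1a. The summed ratio of 4.24 was 3.22 with only Gm4027, the copy with the highest level, which set the difference from Eif1a at 1.80; without 1 copy at a time it ranged from 3.99 without Gm5662 to 4.60 without Gm4027. In settings added after seeing the data it was 4.82 with only Gm8300, 4.81 without BB287469 and Gm4027, and 3.94 with Gm5039. With a pseudocount of 5, log2 folds were 1.23 for BB287469, 1.48 for Gm2016, 1.47 for Gm2022, 1.26 for Gm4027, 1.71 for Gm5662 and 1.41 for Gm8300, as a larger added value shrinks low genes. The copies at least 2-fold higher numbered 6 in 6 of 7 other settings and 5 at the 3-fold rule, where Gm4027 fell short. The numbers of all genes higher and lower, 90 and 48, were 177 and 89 when 0.1 RPKM was added, 37 and 10 when 5 RPKM was added, 34 and 8 with a floor of 5 RPKM, 325 and 199 at 1.5-fold, 53 and 29 at 3-fold, 131 and 77 without a floor, and 56 and 12 for transcripts of at least 200 bases. Scaling factors of 0.995 and 1.002 left the summed ratio at 4.22 and 4.25. Depth limits single copies, at 48 to 119 control reads each at the transcript lengths used, which were not settled.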
